A study of Arabidopsis thaliana with 6 samples.

Results

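The comparison described here set the phloem cap of the Arabidopsis inflorescence stem against the rest of the same vascular bundle, and covered 4 of the 6 RNA sequencing libraries of the series, namely phloem cap libraries S32 and S33 and vascular bundle libraries S30 and S31. Plants were of the strain Col-0, carried no treatment or mutation named in the labels, and were raised on soil under short days before a move to long days that induced flowering. Tissue was cut by laser from frozen sections of the second internode: the cap was collected first and the remaining bundle, labelled as vascular bundle without phloem cap, was collected afterwards as the reference, whereas 2 pith libraries completed the series and were not compared here. Of 37051 genes in the table of raw counts, 18528 passed the filter on low counts and were compared. The sources used here do not say whether the replicates came from different plants, and p-values therefore measure only the spread between these libraries.

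The vascular bundle of the stem holds xylem, whose vessels and fibers deposit thick secondary walls of cellulose, xylan and lignin, then the cambium, which divides to form new vascular cells, then the phloem, whose sieve elements carry sugars and amino acids with the help of companion cells. The phloem cap lies outside the phloem, as a group of cells between the sieve elements and the starch sheath. In Arabidopsis it includes sulfur-rich cells that store glucosinolates, defence compounds that myrosinases cleave when tissue is wounded. In such bulk tissue, fewer cells of a type and less RNA per cell cannot be told apart.

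The 4 libraries held 19324189 to 22571632 counts. The study reports a larger share of unmapped reads for S32 than for S33 or either bundle library. The part of this in the differences between the cap libraries was not tested. Levels below are CPM, the counts of a gene scaled to a common total, on library sizes scaled by the trimmed mean of M-values (TMM), the bundle value of S30 always precedes that of S31 and the cap value of S32 that of S33, and fold changes are log2 of cap over bundle ± SE from the edgeR fit with n = 2 per tissue. The bundle libraries were alike, with 641 genes over 2-fold apart, but 3114 genes were over 2-fold apart between the cap libraries, close to the 3161 to 4815 genes for pairs of a cap and a bundle library. Scaling by library totals in place of TMM moved the median over all genes from 0.04 to 0.18 on the log2 scale.

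With this spread edgeR called no gene in either direction (0% of genes tested) at an adjusted p below 0.01 and a change over 2-fold. Its smallest adjusted p was 0.0486, and 1839 genes above and 2030 genes below the bundle had an unadjusted p below 0.05. DESeq2, the test named by the study, with those limits called 583 genes higher (3.15%) and 795 genes lower (4.29%). Another rule, without a test, asked that the nearest libraries of the tissues lie over 2-fold apart, and 661 genes were separated in this way above the bundle (3.57%) and 867 below it (4.68%). In what follows, higher and lower refer to DESeq2 calls, none of which edgeR shared, and separated refers to the rule without a test.

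Most calls held in both cap libraries, although the separation rule used the same libraries as the test and is no independent check. Of the genes called higher, 502 (86.1%) were separated, and of those called lower, 681 (85.7%). The size of the difference was less even: 348 of the higher genes (59.7%) were over 2-fold more abundant in S32 than in S33, whereas 566 of the lower genes (71.2%) lay within 2-fold of each other in the cap libraries, which is termed even below. Higher genes were also sparse in the bundle, where 252 of them (43.2%) were below 1 CPM in both libraries, and 196 of those 252 were over 2-fold more abundant in S32. A further 726 genes were over 2-fold above both bundle libraries in S32 only and 492 in S33 only. Below the bundle these numbers were 1052 for S32 only and 363 for S33 only. Leaving out 1 library changed which genes DESeq2 called. Of the 583 higher genes 230 were still called without S32, 426 without S33, 292 without S30 and 276 without S31, and of the 795 lower genes 601, 738, 192 and 125. The plot of each cap library against the bundle mean shows the spread between the cap libraries.

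**Figure D1:**
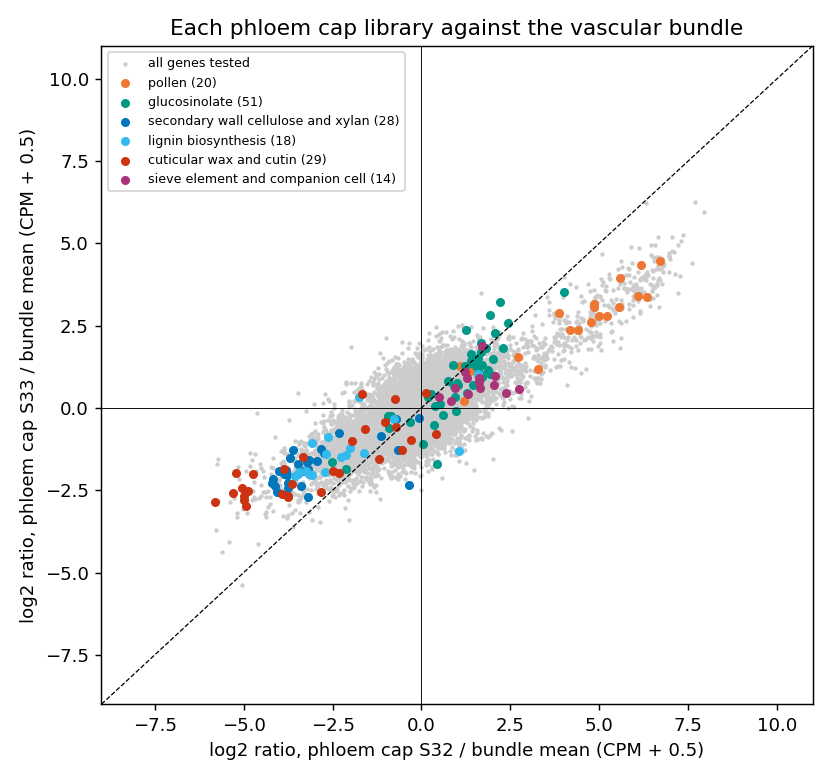
Each point is 1 of the 18528 genes tested, with the log2 ratio of cap library S32 to the bundle mean on the x axis and that of S33 on the y axis (CPM + 0.5). Members of 6 gene lists are coloured and the dashed diagonal marks equal ratios: wall, lignin and wax genes lie below the bundle and further from 0 in S32, glucosinolate genes lie around the diagonal, and pollen genes lie far above the bundle in S32.

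Marker genes were consulted for the purity of the dissection. Summed CPM of all 20 xylem and secondary wall markers listed was 9887 and 10121 in the bundle against 638 and 1869 in the cap. That of all 14 epidermis markers listed was 1410.1 and 1481 against 51.2 and 297. These sums include genes that did not pass the filter. The xylem and epidermis sums were therefore several times smaller in the cap, and within the cap larger in S33 than in S32, by 2.93 times for xylem and 5.81 times for epidermis. Sieve element and companion cell markers summed to 2622 and 1594 CPM in the bundle and 5393 and 3242 CPM in the cap, and cambium markers to 1078 and 893 against 1722 and 1369. Both of these sums were thus larger in each cap library than in either bundle library. Whether these transcripts came from cap cells or from neighbouring tissue was not tested. A list of 23 genes known from mature pollen, of which 20 were tested, summed to 11.8 and 34.1 CPM in the bundle but 1392 and 302 CPM in the cap. The cap sum was 4.6 times larger in S32 than in S33. Among genes of the sperm cells, DUO1 and GCS1 did not pass the filter on low counts, whereas MGH3 (AT1G19890), a histone H3 of the male gamete, was at 0 and 0.366 CPM in the bundle and 9.57 and 4.55 CPM in the cap and was higher (5.18 ± 1.05, with 4.24, 4.54 and 5.61 without S30, S32 and S33), while without S31 no count of it was left in the bundle. Of 10 myrosin and guard cell markers 7 were tested, and the others, MUTE, SPCH and EPF2 of the stomatal lineage, had no count in any library. The part of these cells in the results below was not tested.

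**Figure D2:**
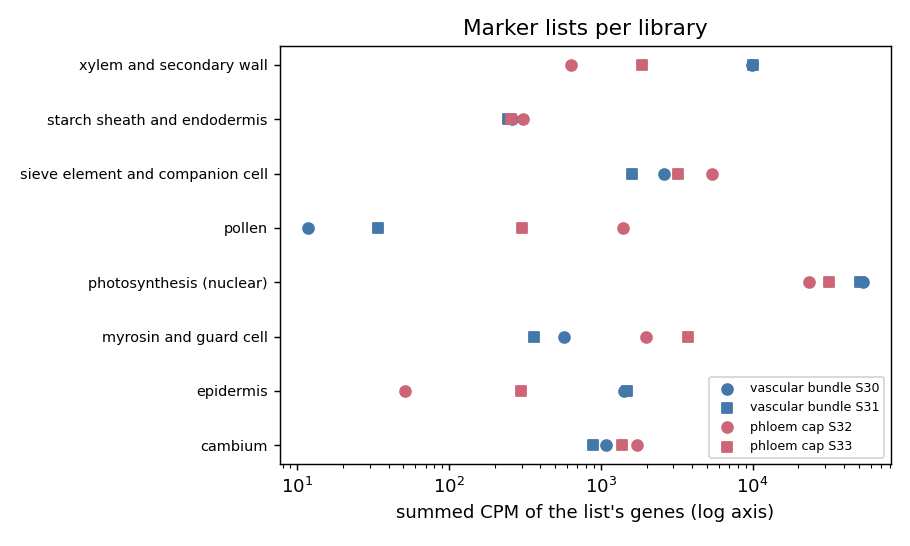
Summed CPM of each marker list (log axis) in the 4 libraries, with circles for S30 and S32 and squares for S31 and S33. Xylem and epidermis sums are lower in both cap libraries than in the bundle and lowest in S32, and the pollen sum is highest in S32 at 1392 CPM.

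Genes of secondary wall formation were lower in the cap. Of 19 xylem markers tested 14 were lower and 0 higher, with a median log2 fold change of -2.56 against 0.04 over all genes, and of 28 genes for secondary wall cellulose and xylan 20 were lower and 0 higher, with a median of -2.37. All 14 of these markers and 19 of the 20 wall genes were over 2-fold more abundant in S33 than in S32. This was the case for 226 (28.4%) of all lower genes. The xylem marker sum above is made partly of these same genes and is no separate measure of this. XCP2 (AT1G20850), a papain-like protease that degrades the contents of dying vessel cells (chr1:7252111-7253747, plus strand), was detected at 2549 and 2477 CPM in the bundle and 50.7 and 120.1 CPM in the cap (log2 fold change -4.88 ± 0.54, DESeq2 adjusted p 1.63e-24, edgeR adjusted p 0.0486). The mean in the bundle was 29.4 times that in the cap, and the log2 fold change was -5.63 without S33. Its relative XCP1 (AT4G35350) was at 169 and 74.3 CPM in the bundle and 4.6 and 17.9 CPM in the cap, a log2 fold change of -3.43 ± 0.77 that ranged from -4.72 without S33 to -2.75 without S30 and was -2.77 without S32.

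The 3 cellulose synthases of the secondary wall changed together. CESA4 (AT5G44030) was at 1897 and 2122 CPM in the bundle and 149 and 372 CPM in the cap (log2 fold change -2.95 ± 0.51). CESA7, listed as IRX3 (AT5G17420), was at 506 and 619.6 CPM in the bundle and 34.8 and 148 CPM in the cap (-2.62 ± 0.69), and CESA8, listed as IRX1 (AT4G18780), at 173 and 258 CPM in the bundle and 11.6 and 47.5 CPM in the cap (-2.87 ± 0.70). In each case the bundle libraries lay within 2-fold, S33 lay between them and S32, and no library of the cap reached the bundle. Without S33 the fold changes of CESA4, CESA7 and CESA8 were -3.76, -4.02 and -4.22, and without S32 those of CESA7 and CESA8 were -1.93 and -2.18. Among the xylan genes, IRX9 (AT2G37090), which is needed to extend the xylan backbone, was at 299 and 523 CPM in the bundle and 23.9 and 69.7 CPM in the cap (-3.13 ± 0.60, or -4.10 without S33), and FRA8 (AT2G28110), needed for the end sequence of xylan, was at 388 and 347 CPM in the bundle and 34.4 and 70.9 CPM in the cap (-2.80 ± 0.42, or -3.42 without S33). IRX15-L (AT5G67210), a DUF579 gene needed for normal xylan, was the 1 wall gene with similar values in both cap libraries, at 1655 and 1639.7 CPM in the bundle and 179 and 254 CPM in the cap (log2 fold change -2.93 ± 0.36, DESeq2 adjusted p 1.07e-17, edgeR adjusted p 0.0486).

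Lignin genes followed. Of 18 genes of monolignol synthesis 12 were lower and 13 separated, with a median of -1.79, and of 8 laccases, which couple monolignols in the wall, 5 were lower with a median of -2.20. The entry enzyme of the phenylpropanoid pathway, phenylalanine ammonia lyase, is encoded by PAL1 (AT2G37040) at 2346 and 1953 CPM in the bundle and 197 and 557 CPM in the cap (-2.51 ± 0.55), by PAL4 (AT3G10340) at 836 and 650.3 CPM in the bundle and 62.97 and 178 CPM in the cap (-2.62 ± 0.54) and by PAL2 (AT3G53260) at 535 and 494 CPM in the bundle and 77.4 and 133 CPM in the cap (-2.29 ± 0.37). Without S33 the first and second of these were -3.45 and -3.56. Next in the pathway, cinnamate 4-hydroxylase C4H (AT2G30490) was at 1038 and 1004 CPM in the bundle and 107 and 269.8 CPM in the cap (-2.44 ± 0.49, or -3.25 without S33). 4CL1 (AT1G51680), which activates coumarate with coenzyme A, was at 1450.0 and 1734 CPM in the bundle and 176 and 397 CPM in the cap (-2.47 ± 0.47, or -3.17 without S33). Of all lower lignin genes, 5 lay within 2-fold in both cap libraries, for example 4CL2 (AT3G21240) at 80.6 and 76.3 CPM in the bundle and 25.3 and 29.9 CPM in the cap and HCT (AT5G48930), a shikimate transferase, at 2042 and 1959.5 CPM in the bundle and 501 and 860.2 CPM in the cap. The ferulate 5-hydroxylase gene FAH1 (AT4G36220), needed for syringyl lignin, was at 204 and 166 CPM in the bundle and 16.3 and 45.5 CPM in the cap (-2.58 ± 0.52, or -3.51 without S33). Laccases covered a wider range of levels. LAC4, listed as IRX12 (AT2G38080), was at 1564 and 1447 CPM in the bundle and 102 and 392 CPM in the cap (-2.61 ± 0.65, or -1.94 without S32 and -3.89 without S33). LAC17 (AT5G60020) was at 121 and 163 CPM in the bundle and 4.96 and 21.3 CPM in the cap (-3.43 ± 0.71, or -2.74 without S32 and -4.84 without S33), and LAC2 (AT2G29130) was at 300.2 and 379 CPM in the bundle and 10.9 and 37.1 CPM in the cap (-3.82 ± 0.63, or -3.19 without S32 and -4.96 without S33).

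Promoter letters of these genes were read from the TAIR10.1 genome, from 250 bases before to 50 bases after each gene start, on both strands. The tracheary element regulating element, known from xylem protease genes, matched 99 of 18527 promoters (0.534%). Among the lists it matched 2 of 19 xylem markers (10.5%), 1 of 28 secondary wall genes (3.57%), 0 of 18 lignin genes and 0 of 8 laccases. It also matched 2 of 14 developmental cell death proteases and nucleases (14.3%), namely XCP1 and a gene that was not called. CESA4 accounts for the match among the secondary wall genes and is also a xylem marker. The AC element ACCAACC, which MYB factors of lignin genes bind, matched 630 promoters (3.4%), 7 of 18 lignin genes (38.9%), 3 of 8 laccases (37.5%), 1 of 19 xylem markers (5.26%) and 0 of 28 secondary wall genes. Its other form ACCTACC matched 261 promoters (1.41%), 3 of 18 lignin genes (16.7%), 1 of 28 secondary wall genes (3.57%), 0 of 8 laccases and 0 of 19 xylem markers. Matches are letters only and were not tested for function. The tracheary element sites of the xylem markers and ACCAACC sites of 4 lower lignin and laccase genes are printed to show the letters around each match. The ACCAACC site of 1 xylem marker, which was not called, is not printed. The motif is in capitals, 5′ to 3′ on the strand of the gene.
XCP1 promoter, chr4:16810399-16810425, plus strand: tgtctttgCTTCAAAGCCAatcctatg
CESA4 promoter, chr5:17714362-17714388, plus strand: cataataaCTTGAAAGCTActctaagt
PAL2 promoter, chr3:19747097-19747119, minus strand: aaagtctcACCAACCgcaaaacg
CYP98A3 promoter, chr2:17060660-17060682, minus strand: atcggttcACCAACCccctccct
CAD5 promoter, chr4:16389164-16389186, minus strand: gtttgttcACCAACCcccgtgga
LAC2 promoter, chr2:12527863-12527885, minus strand: attttgttACCAACCattaaccc
Of the genes shown and not given above, CYP98A3 (AT2G40890), a hydroxylase that forms caffeoyl intermediates, was at 1021 and 1190.0 CPM in the bundle and 131 and 269.7 CPM in the cap (log2 fold change -2.46 ± 0.43, or -3.07 without S33), and CAD5 (AT4G34230), which makes monolignols from their aldehydes, was at 1141 and 1090.3 CPM in the bundle and 234 and 397 CPM in the cap (-1.82 ± 0.37).

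Regulators of the secondary wall were lower as well. NST3, listed as NAC012 (AT1G32770), is a master switch of fiber wall thickening and was at 110.2 and 98.3 CPM in the bundle and 13.9 and 31.1 CPM in the cap (-2.21 ± 0.42, or -2.90 without S33). SND3, listed as NAC010 (AT1G28470), was at 55.3 and 55.2 CPM in the bundle and 9.51 and 13.2 CPM in the cap (-2.28 ± 0.29), with cap libraries close to each other. Of 61 NAC factors 6 were lower and 1 higher. Of 54 MYB factors 5 were lower, among them the wall regulators MYB85 (AT4G22680) at 22.96 and 27.97 CPM in the bundle and 2.81 and 5.45 CPM in the cap (-2.62 ± 0.40) and MYB20 (AT1G66230) at 45.1 and 46.9 CPM in the bundle and 4.96 and 14.4 CPM in the cap (-2.24 ± 0.51, or -3.21 without S33). The lignin regulator MYB63 (AT1G79180) was at 39.3 and 33.1 CPM in the bundle and 2.71 and 15.3 CPM in the cap and was not called (DESeq2 adjusted p 0.0333). The 3 higher MYB factors, MYB28, MYB29 and MYB76, regulate glucosinolate synthesis. Homeodomain factors numbered 8 lower and 1 higher of 60, a count that covers all roles of the family and not wall regulators alone. The family includes the epidermis factors ATML1 and PDF2 described below. Of the 8, KNAT7 (AT1G62990), a regulator of secondary walls, was at 280.3 and 317 CPM in the bundle and 33.5 and 76.9 CPM in the cap (-2.44 ± 0.45, or -3.16 without S33), and BLH6 (AT4G34610), its partner, at 93.9 and 115 CPM in the bundle and 25.3 and 37.7 CPM in the cap (-1.73 ± 0.31).

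Cuticle and epidermis genes formed another group that was lower. Of 29 genes for cuticular wax and cutin 15 were lower, 19 were separated and 0 were higher, with a median of -2.85. Of these 15, 11 were over 2-fold more abundant in S33 than in S32. The epidermis marker sum above includes wax genes such as CER1 and CER3 and is no separate measure of this. CER1 (AT1G02205), which makes wax alkanes, was at 221 and 232 CPM in the bundle and 6.65 and 34.99 CPM in the cap (log2 fold change -3.44 ± 0.79, DESeq2 adjusted p 4.79e-06, edgeR adjusted p 0.0842). Its partner CER3 (AT5G57800) was at 601 and 590.03 CPM in the bundle and 17.7 and 110.3 CPM in the cap (-3.22 ± 0.86), and KCS1 (AT1G01120), which elongates fatty acids, at 178 and 229 CPM in the bundle and 6.14 and 25.4 CPM in the cap (-3.69 ± 0.70). Of the cap libraries S32 had the lower level of all 3. Without S33 the fold changes of CER1, CER3 and KCS1 were -5.09, -5.07 and -5.05, and without S32 they were -2.69, -2.43 and -3.001. Some genes of the list were more even. GPAT4 (AT1G01610), an acyltransferase for cutin, was at 9.23 and 12.1 CPM in the bundle and 1.07 and 1.38 CPM in the cap (-3.11 ± 0.40). The wax elongation gene KCS6 (AT1G68530) was at 436 and 465 CPM in the bundle and 11.6 and 113 CPM in the cap and CYP96A15 (AT1G57750), the midchain alkane hydroxylase, at 402 and 573 CPM in the bundle and 8.18 and 66.99 CPM in the cap. Both were separated and had unequal cap libraries, and neither was called (DESeq2 adjusted p 0.171 and 0.0338).

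Of 10 epidermis markers tested 5 were lower and 7 separated, and none of the 5 lay within 2-fold in the cap libraries. ATML1 (AT4G21750) and PDF2 (AT4G04890) are homeodomain factors that specify the epidermis. ATML1 was at 30.97 and 38.5 CPM in the bundle and 0.409 and 4.78 CPM in the cap (-3.73 ± 0.97, -2.86 without S32 and -6.39 without S33), and PDF2 at 25.7 and 33.6 CPM in the bundle and 0.563 and 4.86 CPM in the cap (-3.43 ± 0.89, -2.61 without S32 and -5.70 without S33). The related ANL2 (AT4G00730), which controls anthocyanin in the subepidermal layer, was at 35.1 and 47.4 CPM in the bundle and 3.38 and 7.28 CPM in the cap (-2.95 ± 0.44, -3.61 without S33). Lipid transfer proteins, small secreted proteins that bind lipids, counted 7 lower and 2 higher of 27. LTP3 (AT5G59320) was at 762 and 710.2 CPM in the bundle and 31.05 and 225 CPM in the cap (-2.52 ± 0.89, -1.71 without S32 and -4.57 without S33). In contrast, LTP (AT2G15050) was at 143 and 139 CPM in the bundle and 14.7 and 25.5 CPM in the cap (-2.81 ± 0.35) and was even in the cap. The drought-induced gene RD22 (AT5G25610) was at 3625 and 4516 CPM in the bundle and 77.4 and 576 CPM in the cap (-3.64 ± 0.96, -2.82 without S32 and -5.72 without S33).

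Part of the photosynthesis genes was lower. Of 48 nuclear genes 16 were lower and 0 higher, with a median of -0.93, and 1 of the 16 was over 2-fold more abundant in S33. Only 9 of the 48 were separated, while 26 were over 2-fold below both bundle libraries in S32 only and 1 in S33 only. The median log2 ratio to the bundle mean was -1.300 in S32 and -0.61 in S33. Their summed CPM was 53156 and 50730.4 in the bundle and 23598 and 31783 in the cap. PSAF (AT1G31330), a subunit of photosystem I, was at 3211 and 3758 CPM in the bundle and 1423 and 1517 CPM in the cap (-1.25 ± 0.34), and PSAN (AT5G64040), another subunit, at 431 and 539 CPM in the bundle and 153 and 163 CPM in the cap (-1.62 ± 0.30). The electron transfer gene FNR2 (AT1G20020) was at 447 and 491 CPM in the bundle and 105 and 140.1 CPM in the cap (log2 fold change -1.94 ± 0.31, DESeq2 adjusted p 2.67e-08, edgeR adjusted p 0.055). Bundle means were 2.37, 3.07 and 3.82 times those in the cap, with no overlap of the tissues. CA1 (AT3G01500), chloroplast carbonic anhydrase, had a larger difference, at 634 and 708 CPM in the bundle and 60.5 and 95.6 CPM in the cap (log2 fold change -3.10 ± 0.36, DESeq2 adjusted p 3e-16, edgeR adjusted p 0.0486), and so had PnsB1 (AT1G15980), a subunit of the NDH complex of cyclic electron flow, at 53.5 and 76.8 CPM in the bundle and 5.12 and 7.1 CPM in the cap (-3.41 ± 0.34). In the starch list, the chloroplast beta-amylase gene CT-BMY (AT4G17090), which breaks starch down at night, was at 491 and 391 CPM in the bundle and 129 and 146 CPM in the cap (-1.68 ± 0.30).

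Cytochromes P450 were split. Of 106 members 20 were lower and 6 higher, and 12 of the lower ones were separated and even in the cap. The CYP71B members stood out among families defined by their product names, with 6 of 17 lower, 7 separated and a median of -1.87. CYP706A1 (AT4G22690) was at 148 and 235 CPM in the bundle and 32.02 and 41.8 CPM in the cap (-2.38 ± 0.34), CYP71B12 (AT5G25130) at 20.2 and 39.5 CPM in the bundle and 3.94 and 6.96 CPM in the cap (-2.45 ± 0.46) and CYP71B26 (AT3G26290) at 49.4 and 66.7 CPM in the bundle and 7.57 and 17.2 CPM in the cap (-2.23 ± 0.44, or -2.94 without S33). Of the 6 higher members 4 belong to glucosinolate metabolism (CYP79F1, CYP83A1, CYP83B1 and CYP81F3). Beyond these, CYP78A9 (AT3G61880), which promotes fruit and seed growth, was at 20.5 and 12.2 CPM in the bundle and 62.2 and 53.1 CPM in the cap (1.82 ± 0.33), with both cap libraries above both of the bundle.

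Receptor-like kinases changed in both directions, with 18 higher and 20 lower of 226. Of the 20 lower members 15 were both separated and even in the cap, and of the 18 higher members 3 were. AT4G26540, a leucine-rich repeat kinase, was at 143 and 142 CPM in the bundle and 18.8 and 29.1 CPM in the cap (log2 fold change -2.57 ± 0.32, DESeq2 adjusted p 2.63e-11, edgeR adjusted p 0.0486), and WAK1 (AT1G21250), which binds pectin in the wall, at 74.7 and 101 CPM in the bundle and 16.3 and 25.8 CPM in the cap (-2.06 ± 0.33). A further pair of leucine-rich repeat kinases, AT1G79620 and AT5G49760, were at 585 and 532 CPM in the bundle and 145 and 188 CPM in the cap (-1.75 ± 0.31) and at 81.7 and 88.3 CPM in the bundle and 19.1 and 24.9 CPM in the cap (-1.95 ± 0.27). Of the 18 higher kinases 9 were over 2-fold more abundant in S32 than in S33, against 59.7% of all higher genes. PRK5 (AT1G50610), of the pollen receptor-like kinase family, was at 0.101 and 0.0914 CPM in the bundle and 12.4 and 2.81 CPM in the cap (6.21 ± 0.99, with 4.79 without S32 and 6.92 without S33), and AT1G72460, a leucine-rich repeat kinase, at 0 and 0 CPM in the bundle and 4.65 and 0.803 CPM in the cap. The part of pollen transcripts in these calls was not tested. Other higher kinases were more abundant. BAM3 (AT4G20270), a peptide receptor of the root protophloem, was at 137 and 83.7 CPM in the bundle and 332 and 243 CPM in the cap (1.38 ± 0.36), and the related BAM1 (AT5G65700) at 286 and 197 CPM in the bundle and 649.97 and 479 CPM in the cap (1.23 ± 0.34). Neither was separated. MRLK (AT3G56100), a kinase of low abundance named for the meristem, was separated and was at 1.01 and 0.64 CPM in the bundle and 4.6 and 5.22 CPM in the cap (2.57 ± 0.50). From the brassinosteroid list, BRL2 (AT2G01950), a relative of the brassinosteroid receptor that acts in provascular cells, was at 108 and 85.4 CPM in the bundle and 200.4 and 229 CPM in the cap (1.15 ± 0.28) and was not separated.

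Auxin genes numbered 2 higher and 6 lower of 82, where 3.15% and 4.29% of all genes tested were higher and lower. The Aux/IAA repressors IAA7 (AT3G23050) and IAA19 (AT3G15540) were at 163 and 188 CPM in the bundle and 26.1 and 44.7 CPM in the cap (-2.31 ± 0.35) and at 33.5 and 33.6 CPM in the bundle and 5.68 and 7.28 CPM in the cap (-2.37 ± 0.29). The transporter gene ABCB15 (AT3G28345) was among the most strongly lower genes, at 258 and 139 CPM in the bundle and 3.12 and 14.6 CPM in the cap (-4.48 ± 0.82, -3.76 without S32 and -5.99 without S33). The 2 higher members were DFL1 and PIN5. DFL1 (AT5G54510), also known as GH3.6, conjugates auxin to amino acids and was at 4.87 and 5.16 CPM in the bundle and 18.98 and 16.9 CPM in the cap (1.84 ± 0.29), and PIN5 (AT5G16530), an auxin carrier of the endoplasmic reticulum, was at 1.77 and 0.914 CPM in the bundle and 15.1 and 7.01 CPM in the cap (3.04 ± 0.56, or 2.39 without S32). DFL1 was even in the cap, whereas PIN5 was over 2-fold more abundant in S32.

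Outside these groups the lower genes with the largest changes were of varied function. AT4G01985, which is uncharacterized, had unequal bundle libraries at 61.3 and 8.32 CPM in the bundle and 0.563 and 0.357 CPM in the cap (-6.24 ± 1.15, -4.18 without S30 and -7.05 without S31). The subtilase gene ATSBT5.2 (AT1G20160) was at 90.8 and 51.5 CPM in the bundle and 1.18 and 3.79 CPM in the cap (-4.83 ± 0.64, -4.23 without S32 and -5.91 without S33), and the metal transporter gene ZIP7 (AT2G04032) at 48.1 and 62.2 CPM in the bundle and 2.2 and 5.09 CPM in the cap (-3.91 ± 0.46, -4.64 without S33). More evenly, the uncharacterized AT3G17050 was at 103 and 161 CPM in the bundle and 5.01 and 7.01 CPM in the cap (log2 fold change -4.45 ± 0.38, DESeq2 adjusted p 1.84e-26, edgeR adjusted p 0.0486). The beta-galactosidase gene MUM2 (AT5G63800), known for its role in seed mucilage, was at 109 and 131 CPM in the bundle and 9.82 and 19.4 CPM in the cap (-3.04 ± 0.40). The signal peptide gene RALF1 (AT1G02900), whose product raises the pH outside root cells, was at 28.8 and 32.8 CPM in the bundle and 3.73 and 6.78 CPM in the cap (-2.55 ± 0.37) and was the single lower gene of the CLE and RALF list.

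Genes higher to a similar degree in both cap libraries were fewer. In all, 179 genes were called higher, were separated and lay within 2-fold in the cap, against 466 such lower genes. AT1G34095 (chr1:12411670-12412514, minus strand), which is uncharacterized, had the largest difference of these, with 53.1 and 50.5 CPM in the cap against 0.304 and 0.0457 CPM in the bundle (log2 fold change 8.20 ± 0.60, DESeq2 adjusted p 2.05e-31, edgeR adjusted p 0.0486). It was nearly absent from the bundle, and its fold change was 9.96 without S30 and 7.38 without S31. MIPS3 (AT5G10170) (chr5:3187277-3190321, minus strand), which makes inositol phosphate from glucose 6-phosphate, was at 10.8 and 9.51 CPM in the bundle and 48.3 and 49.5 CPM in the cap (log2 fold change 2.26 ± 0.26, DESeq2 adjusted p 1.99e-10, edgeR adjusted p 0.0486), with replicates of each tissue nearly equal. PS2 (AT1G73010), a phosphatase induced by phosphate starvation, was at 24.6 and 19.8 CPM in the bundle and 91.2 and 125 CPM in the cap (log2 fold change 2.28 ± 0.30, DESeq2 adjusted p 2.01e-09, edgeR adjusted p 0.0486). The boron exporter gene BOR1 (AT2G47160) was at 148 and 68.6 CPM in the bundle and 474 and 344 CPM in the cap (1.91 ± 0.44, or 2.56 without S30). WDL1 (AT3G04630), a microtubule-binding protein gene, was at 4.97 and 5.21 CPM in the bundle and 22.4 and 20.1 CPM in the cap (2.06 ± 0.28), and the cytochrome b5 gene CB5-C (AT2G46650) at 42.4 and 30.3 CPM in the bundle and 109 and 171 CPM in the cap (1.95 ± 0.34). Of 27 subtilases, secreted proteases, 4 were higher and 3 of these were even in the cap, including AT2G39850 at 48.3 and 24.2 CPM in the bundle and 155 and 137 CPM in the cap (2.01 ± 0.39) and AT1G30600 at 25.3 and 21.9 CPM in the bundle and 53.5 and 55.4 CPM in the cap (1.204 ± 0.25). The metacaspase gene MC3 (AT5G64240) was at 13.7 and 5.35 CPM in the bundle and 45.5 and 29.3 CPM in the cap (1.97 ± 0.50, or 2.79 without S30).

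**Figure D3:**
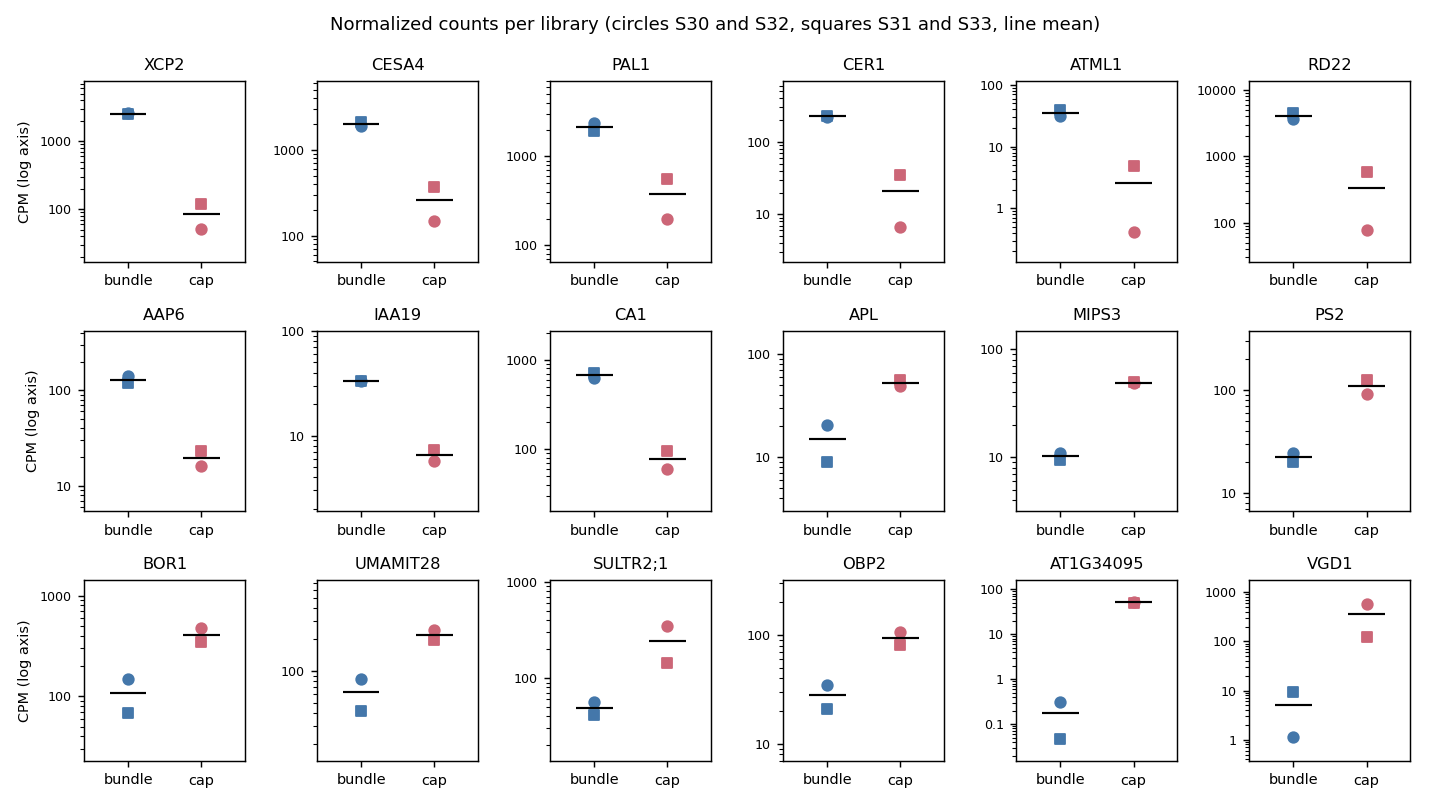
CPM of selected genes in each library on a log axis, with circles for bundle S30 and cap S32, squares for bundle S31 and cap S33, and a line at the mean of each tissue. No tissue overlaps the other in any panel, the cap points of MIPS3 and AT1G34095 nearly coincide, and those of CER1, ATML1, RD22 and VGD1 lie apart.

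Transcription factors known from vascular tissue were among the genes higher to a similar degree in both cap libraries. APL (AT1G79430), the factor that specifies phloem identity (chr1:29877228-29879279, minus strand), was at 20.8 and 9.0 CPM in the bundle and 49.5 and 56.5 CPM in the cap (log2 fold change 1.83 ± 0.43, DESeq2 adjusted p 0.00173, edgeR adjusted p 0.0778). Its fold change was 2.54 without S30. DOF factors, a plant zinc finger family with many members in vascular tissue, had 4 higher and 0 lower of 15 tested, with a median of 1.001 that stayed between 0.67 and 1.38 under all settings tried. DOF1.1, listed as OBP2 (AT1G07640), was at 34.9 and 20.9 CPM in the bundle and 107 and 80.9 CPM in the cap (1.75 ± 0.34), DAG1 (AT3G61850) at 6.84 and 5.85 CPM in the bundle and 17.9 and 18.97 CPM in the cap (1.54 ± 0.28), and DAG2 (AT2G46590) at 7.91 and 6.9 CPM in the bundle and 20.3 and 17.7 CPM in the cap (1.36 ± 0.28). All 3 were separated and even in the cap. The fourth, DOF2.4 (AT2G37590), was at 23.01 and 11.7 CPM in the bundle and 73.7 and 43.1 CPM in the cap (1.75 ± 0.43) and was not separated. NAC028 (AT1G65910) was the 1 higher NAC factor, at 5.58 and 3.88 CPM in the bundle and 12.9 and 14.3 CPM in the cap (1.52 ± 0.33), and WRKY35 (AT2G34830) was at 4.11 and 3.38 CPM in the bundle and 16.8 and 11.8 CPM in the cap (1.94 ± 0.34).

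Sieve element genes were above the bundle without reaching the threshold in most cases. Of 14 markers, 3 were higher and 0 lower, with a median of 1.303, and for 8 of them the cap library S32 alone was over 2-fold above both bundle libraries. CalS7 (AT1G06490), the callose synthase of sieve plates, was at 35.6 and 27.9 CPM in the bundle and 98.9 and 60.6 CPM in the cap (1.33 ± 0.33), and AT4G29920, a SMXL family gene, at 50.1 and 30.6 CPM in the bundle and 171 and 79.04 CPM in the cap (1.63 ± 0.45, or 0.97 without S32). The sucrose carrier gene SUC2 (AT1G22710) of companion cells was at 1002 and 678 CPM in the bundle and 1510.0 and 980.3 CPM in the cap (DESeq2 adjusted p 0.421), and the structural gene SEOR1 (AT3G01680) at 166 and 116 CPM in the bundle and 343 and 267 CPM in the cap (DESeq2 adjusted p 0.0138). Neither was called. Callose synthases and plasmodesmal proteins, taken as a list, had 4 of 21 higher and separated, 0 lower and a median of 0.65. The most changed of the 4, CALS5 (AT2G13680), a callose synthase known from pollen walls, was at 0.304 and 1.01 CPM in the bundle and 14.8 and 2.77 CPM in the cap (3.72 ± 0.99, with 3.12, 4.84, 2.05 and 4.46 without S30, S31, S32 and S33) and was over 2-fold more abundant in S32, as the pollen list was. The others were even in the cap. GSL04 (AT3G14570), also a callose synthase, was at 45.4 and 27.3 CPM in the bundle and 141 and 94.7 CPM in the cap (1.70 ± 0.36), the callose-binding gene PDCB1 (AT5G61130) was at 124 and 108 CPM in the bundle and 251 and 324 CPM in the cap (1.31 ± 0.29), and PDLP7 (AT5G37660) was at 7.15 and 4.2 CPM in the bundle and 22.1 and 15.2 CPM in the cap (1.72 ± 0.38).

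Cambium and cell cycle genes had small shifts and few calls, beside 3.15% of all genes tested that were higher. Of 14 cambium markers 1 was higher, namely the growth regulator ANT (AT4G37750) at 97.98 and 65.8 CPM in the bundle and 178 and 209 CPM in the cap (1.24 ± 0.31), although the median was 0.88. The cambium receptor gene PXY (AT5G61480) was at 347 and 300.2 CPM in the bundle and 511 and 391 CPM in the cap (DESeq2 adjusted p 0.401) and WOX4 (AT1G46480), which acts after it, at 15.8 and 11.5 CPM in the bundle and 27.3 and 31.8 CPM in the cap (DESeq2 adjusted p 0.0209), and neither was called. Of 47 cell cycle genes 2 were higher, near the share over all genes, with a median of 0.85. Of the 47, 16 were over 2-fold above both bundle libraries in S33 only, against 2.66% of all genes tested. CDKB2;1 (AT1G76540), a mitotic kinase gene, was at 3.24 and 3.11 CPM in the bundle and 7.57 and 14.5 CPM in the cap (1.80 ± 0.42). No member of 197 cytosolic ribosomal protein genes was called, the median was 0.36, and 18 were over 2-fold above the bundle in S33 only. Sieve element genes were thus uneven toward S32 and those of cell division toward S33.

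Amino acid transport genes were split between higher and lower members. Of 62 amino acid permeases and UMAMIT exporters, 8 were higher and 6 lower, of which 5 and 5 were separated. UMAMIT28 (AT1G01070) was at 84.7 and 41.5 CPM in the bundle and 246 and 196 CPM in the cap (1.81 ± 0.40, or 2.40 without S30). LHT7 (AT4G35180), a lysine and histidine transporter gene by name, was at 9.43 and 5.85 CPM in the bundle and 86.9 and 32.4 CPM in the cap (2.96 ± 0.55, or 2.08 without S32). GDU5 (AT5G24920), of the glutamine dumper family that promotes amino acid export, was at 14.6 and 4.75 CPM in the bundle and 66.3 and 34.2 CPM in the cap (2.38 ± 0.61, 3.39 without S30 and 1.79 without S31). The proline carrier gene PROT1 (AT2G39890) was at 224 and 168 CPM in the bundle and 527 and 418 CPM in the cap (1.27 ± 0.32). In the other direction, AAP6 (AT5G49630), an amino acid importer known from xylem parenchyma, was at 140.4 and 118 CPM in the bundle and 16.2 and 22.9 CPM in the cap (log2 fold change -2.73 ± 0.30, DESeq2 adjusted p 2.66e-13, edgeR adjusted p 0.0486), and UMAMIT3 (AT3G45870) at 109 and 129 CPM in the bundle and 13.5 and 20.8 CPM in the cap (log2 fold change -2.80 ± 0.32, DESeq2 adjusted p 2.24e-12, edgeR adjusted p 0.0486). Other nutrient genes changed singly. SULTR2;1 (AT5G10180), a sulfate carrier of the vasculature, was the 1 higher gene of 33 for sulfate uptake and assimilation, where 3.15% of all genes tested were higher. It was at 56.5 and 41.5 CPM in the bundle and 345 and 142 CPM in the cap (2.31 ± 0.48, or 1.54 without S32). NRT1.5 (AT1G32450), which loads nitrate into xylem, was at 102 and 96.7 CPM in the bundle and 191 and 364 CPM in the cap (1.48 ± 0.38), and glutamate dehydrogenase gene GDH3 (AT3G03910) at 16.7 and 6.95 CPM in the bundle and 57.6 and 38.9 CPM in the cap (2.03 ± 0.47, or 2.79 without S30).

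Glucosinolate genes, which are described only briefly here, had 25 higher and 2 lower of 51 with a median of 1.37, and 19 of the higher ones were separated and even in the cap. The myrosinases were higher too, with more in S33: TGG2 (AT5G25980) was at 374 and 231 CPM in the bundle and 1408 and 2828 CPM in the cap (2.81 ± 0.49, or 2.22 without S33) and TGG1 (AT5G26000) at 139 and 99.7 CPM in the bundle and 455 and 849.9 CPM in the cap (2.45 ± 0.42). FAMA, listed as FMA (AT3G24140), a factor of myrosin and guard cells, was at 4.06 and 4.16 CPM in the bundle and 12.3 and 8.84 CPM in the cap and was not called (DESeq2 adjusted p 0.0248). Of the 7 myrosin and guard cell markers tested, 2 were higher and 0 lower, and 4 had a fold change above 0. By the rule without a test 3 were separated above the bundle and 1 below it. MYB60 of this list had a negative fold change (-1.54 ± 0.78) and was not called.

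Of the lists examined, that of pectin modification held the most higher genes by number, whereas larger shares of the glucosinolate list (25 of 51) and of the pollen list were higher. Over all genes tested 3.15% were higher and 4.29% lower. Of 125 pectin esterases, lyases and polygalacturonases 38 were higher and 12 lower, with a median of 0.40, and 33 of the 38 were over 2-fold more abundant in S32 than in S33, against 59.7% of all higher genes. The pollen list had 12 of 20 tested genes higher, and 11 of those 12 over 2-fold more abundant in S32. It holds pectin enzyme genes such as VGD1 and PPME1, so the lists are not independent of each other. AT3G14040, a pectin lyase-like gene, was at 0.71 and 1.01 CPM in the bundle and 334 and 83.7 CPM in the cap (7.91 ± 0.88, 6.59 without S32 and 8.59 without S33), and AT3G07850, of the same superfamily, at 0.355 and 1.42 CPM in the bundle and 284 and 105 CPM in the cap (7.75 ± 0.89, 6.85 without S32, 7.09 without S30 and 9.08 without S31). These transcripts were close to 0 in the bundle. The pollen pectin methylesterase gene VGD1 (AT2G47040) was at 1.12 and 9.14 CPM in the bundle and 585 and 123 CPM in the cap (6.10 ± 1.31, with 5.27, 8.31, 4.57 and 6.82 without S30, S31, S32 and S33), and its near-identical neighbour VGDH1 makes this value uncertain. AT5G50030, a pectin methylesterase inhibitor gene by family, was at 0.152 and 0.274 CPM in the bundle and 93.2 and 25.6 CPM in the cap (8.07 ± 0.90, 6.85 without S32 and 8.71 without S33). The 12 lower members included abundant genes of the bundle that were even in the cap, such as the pectin methylesterase gene PMEPCRF (AT5G53370) at 1975 and 2563 CPM in the bundle and 864 and 831 CPM in the cap (-1.42 ± 0.34) and ATPMEPCRD (AT2G43050) at 433 and 667 CPM in the bundle and 125 and 163 CPM in the cap (-1.93 ± 0.35). The part of pollen transcripts in the higher pectin genes was not tested.

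Arabinogalactan proteins and signal peptides shared this unevenness. The pollen list holds arabinogalactan protein genes and RALF genes such as RALFL4, so these lists are not independent of it. Of 26 arabinogalactan proteins, glycoproteins of the cell surface, 5 were higher and all 5 were over 2-fold more abundant in S32. AGP24 (AT5G40730) was at 1.37 and 1.87 CPM in the bundle and 49.8 and 19.9 CPM in the cap (4.42 ± 0.55, or 3.60 without S32). Of 21 CLE and RALF signal peptides 6 were higher, again all with more in S32, for example RALFL26 (AT3G25170) at 0.203 and 0.96 CPM in the bundle and 92.6 and 14.1 CPM in the cap (6.48 ± 1.22, with 5.78, 8.01, 4.56 and 7.27 without S30, S31, S32 and S33). Of 51 potassium and proton transport genes 7 were higher and 2 lower, and of the 7 higher ones 4 were over 2-fold more abundant in S32 and 3 were even. The proton pump gene HA8 (AT3G42640), also known as AHA8, was at 7.96 and 10.4 CPM in the bundle and 273 and 70.3 CPM in the cap (4.23 ± 0.71, 2.94 without S32 and 4.89 without S33), and the exchanger gene CHX14 (AT1G06970) at 0.203 and 0.137 CPM in the bundle and 4.35 and 2.77 CPM in the cap (4.35 ± 0.66). By contrast the exchanger gene CHX20 (AT3G53720), known from guard cells, was at 73.5 and 38.4 CPM in the bundle and 1.23 and 6.29 CPM in the cap and lower (-3.88 ± 0.81, -3.15 without S32 and -5.50 without S33). Aquaporins counted 2 higher and 2 lower of 24, with 1 of the higher ones over 2-fold more abundant in S32. TIP5;1 (AT3G47440), known from pollen, was at 0.253 and 0.274 CPM in the bundle and 29.3 and 12.5 CPM in the cap (6.27 ± 0.61, or 5.53 without S32), PIP2;8 (AT2G16850) at 77.3 and 68.05 CPM in the bundle and 151 and 142 CPM in the cap (1.01 ± 0.26) and PIP2;4 (AT5G60660) at 72.6 and 71.4 CPM in the bundle and 2.3 and 10.09 CPM in the cap (-3.53 ± 0.69, -2.83 without S32 and -4.96 without S33).

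Ranked by their median over 240 families named from product descriptions, cation/H+ exchangers were first with 4.04 (2.43 when genes at 3 counts or fewer were set to that limit), then RALF-like peptides with 3.02, DOF zinc fingers with 1.24 and early nodulin-like proteins with 1.11. These families had 4, 5, 4 and 4 higher members of 11, 10, 15 and 14. The RALF-like family includes RALFL4 of the pollen list. The DOF family named from product descriptions is not the same set of genes as the DOF list above, whose median was 1.001. Of the exchangers 1 was lower, and their summed CPM was 79.7 and 51.0 in the bundle and 306.6 and 81.1 in the cap. The exchanger sum in S33 was thus close to that of bundle library S30. Last were 3-ketoacyl-CoA synthases, which elongate fatty acids for wax, with -1.95, the CYP71B enzymes with -1.87 and cysteine-rich receptor-like kinases with -1.47, the latter with 1 lower member of 19. Medians of 22 of 62 lists changed sign under at least 1 setting, for example arabinogalactan proteins (0.29), aquaporins (0.46) and class III peroxidases (0.48), which fell below 0 without S33 (-0.15, -0.04 and -0.84). Some lists had no call at all, such as 17 genes for salicylate and pathogen defence, 12 for primary wall cellulose and 6 starch sheath markers, while 21 circadian genes had 1 lower. These medians and counts describe the lists beside the medians and shares over all genes and were not tested as sets.

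**Figure D4:**
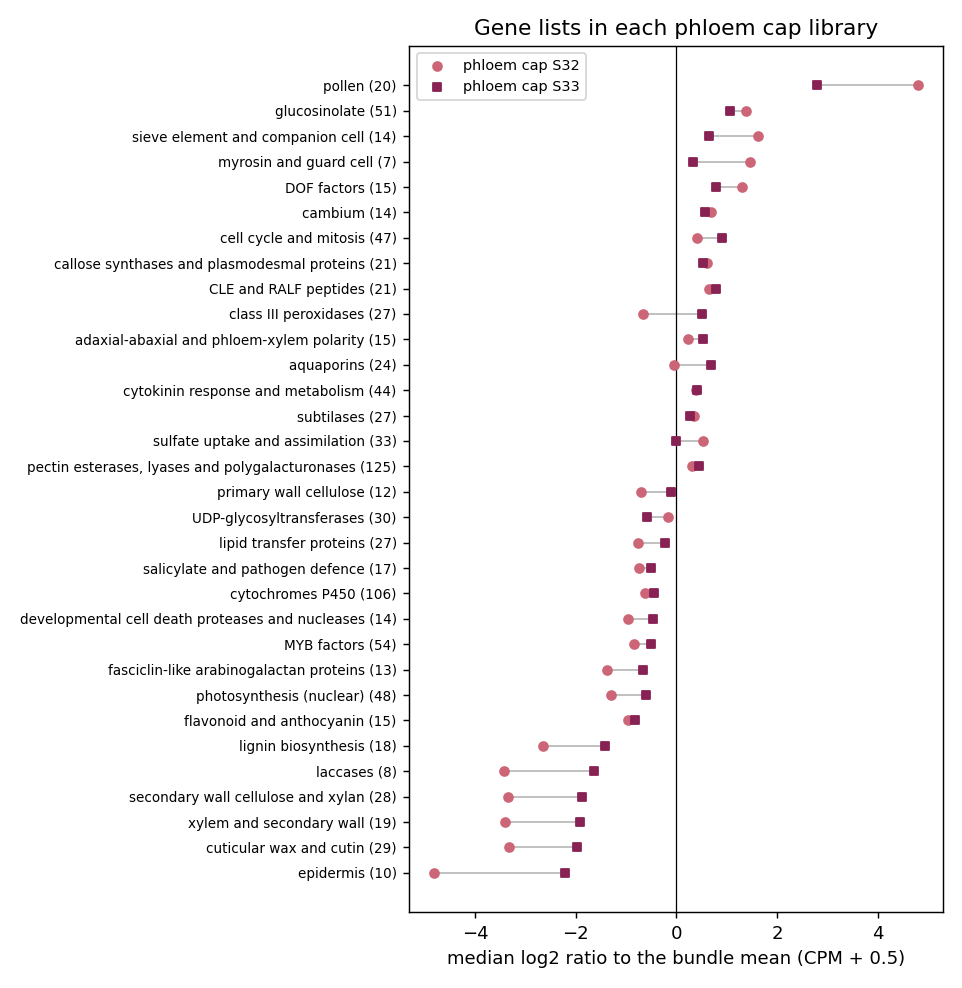
Median log2 ratio of each cap library to the bundle mean (CPM + 0.5) for the 16 lists with the lowest and the 16 with the highest medians, with the number of genes tested in brackets, circles for S32 and squares for S33. Xylem, wall, laccase, wax and epidermis lists lie lowest and further from 0 in S32, the pollen list lies highest, and class III peroxidases lie on opposite sides of 0 in the cap libraries.

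Genes that overlap another counted gene are uncertain, because reads in the overlap were counted for neither and strand was ignored. Of the genes named, these are XCP1, CESA4, IRX3, IRX1, FRA8, IRX15-L, 4CL1, CYP98A3, LAC17, PSAN, CA1, PnsB1, CT-BMY, AT4G26540, MIPS3, MC3, CDKB2;1, LHT7, UMAMIT3, GDH3, NRT1.5, PMEPCRF, RALFL26, HA8 and TIP5;1. Genes with near-identical copies are uncertain as well, since reads that align to more than 1 place were dropped.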

How the data were processed

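Raw counts of reads per gene were deposited by the authors, who mapped untrimmed single-end reads with STAR 2.5.0a to TAIR10, kept unique alignments and counted Araport11 genes, introns included and strand ignored, in R 3.5.0. RNA had been amplified before sequencing, and limits from a count of 0 therefore cover counting error only. Of the count columns 0 were left unused. Counts were filtered with filterByExpr, normalized by TMM and tested with glmQLFit (robust) and glmQLFTest in edgeR 4.0.16 (limma 3.58.1, R 4.3.3), and with the Wald test of DESeq2 1.42.0, on the 4 libraries. A gene was called at an adjusted p (Benjamini-Hochberg) below 0.01 with a change over 2-fold. Separation used CPM with a pseudocount of 0.5. SEs were derived from the fold change and the F statistic of edgeR. Python 3.11.15 read TAIR10.1, whose nuclear chromosomes have the TAIR10 coordinates, and matplotlib 3.10.9 drew the plots. Scripts were tested on simulated data.

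The gene lists, the rules and the members were chosen with earlier results of these data known. Genes were named by rule: the 15 largest changes in each direction among genes called, separated and with at least 20 CPM in the higher tissue outside the glucosinolate and pollen lists, the 2 most abundant and 3 most changed members of each list, markers, and the 2 most abundant members of the 3 first and 3 last families. AGP24, HA8, CHX14, PIP2;8, ATPMEPCRD, UMAMIT28, LHT7, GDU5, PROT1, AAP6, UMAMIT3, GDH3, PDCB1, DOF2.4, NAC028, PS2, BOR1, WDL1, CB5-C, AT2G39850, AT1G30600, MC3, MUM2, RALF1, IAA7, IAA19, DFL1, AT4G26540, WAK1, AT1G79620, AT5G49760, BAM3, MRLK, CYP706A1, CYP71B12, CYP78A9, CA1, PnsB1, GPAT4, MYB20, MYB63, KNAT7, BLH6, CAD5, PAL2, C4H, 4CL1, 4CL2 and IRX15-L were chosen after their values were seen, many of them because the cap libraries lay within 2-fold. Alternatives changed the test, normalization, filter, threshold, separation gap and libraries.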

Additional observations from a re-analysis of the deposited data

Results flagged for a closer look

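Pollen transcripts were also found in the pith, whose libraries entered no comparison above. On a TMM scale over all 6 libraries the summed level of the pollen list was 69.4 CPM in pith library S34 and 40.01 CPM in pith library S35, above the 11.02 and 31.8 CPM of bundle libraries S30 and S31 and below the 1311 and 284 CPM of cap libraries S32 and S33.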

How the results depend on the processing

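The edgeR counts depended on the threshold, filter and libraries. In place of 0 higher and 0 lower genes, edgeR called 27 and 65 at an adjusted p below 0.05, 718 and 846 below 0.1, and 25 and 72 with no count filter, and DESeq2 called 583 and 795. Leaving out each library gave 0 to 709 higher and 0 to 1071 lower edgeR genes, with the most without S33. With 1 library left in a tissue its spread is assumed to be that of the other tissue, and without a cap library the spread came from the similar bundle libraries alone. Other normalizations, a filter at 1 CPM and a fit over 6 libraries left edgeR at 0.

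DESeq2 called 911 higher and 1112 lower genes at an adjusted p below 0.05, and 329 to 732 higher and 127 to 1332 lower genes when each library was left out in turn. A gap of 1.5-fold separated 1367 genes above and 1689 below the bundle, and a gap of 4-fold 273 and 132. Separation without each library in turn gave 824 to 1387 and 1024 to 1919, where fewer libraries make the rule easier to pass. Scaling by library totals turned 661 above and 867 below into 822 and 684. Otherwise the cause was not tested.

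The sign held under every alternative tried for each of the 126 genes whose levels are given. Many of these genes were chosen as separated, and leaving out a library cannot reverse the sign of a separated gene. The result is therefore no measure of how stable other genes are. Of 62 lists, 22 changed the sign of their median under at least 1 alternative. With n = 2 per tissue, calls rest on few values. A count of 0 allows up to 3 counts, or 0.134 to 0.153 CPM by library. No paired analysis was possible because the library labels of the tissues share no replicate number.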
